A study of Mus musculus with 4 samples.

Results

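Crabp1 Pthlh Nkx2-1 interneurons were GABAergic cells that carried mRNA for the retinoic acid binding protein Crabp1 together with mRNA for parathyroid hormone-like hormone (Pthlh) or for the transcription factor Nkx2-1. A cell was taken as a member if it held 200 to 6000 genes, under 30% mitochondrial UMIs (unique molecular identifiers, 1 per captured mRNA molecule), at least 2 UMIs of Gad1 and Gad2 together, 0 of Mog, at least 1 of Crabp1, at least 2 of Pthlh and Nkx2-1 together, and Sst under 3000 CPM (the standard count scale, a gene's UMIs as a share of all UMIs of the cell or of summed cells). The rule found 103 members among 26987 cells in the files, 26201 of which passed the filter on genes and mitochondrial UMIs and 9939 of which also met the Gad1, Gad2 and Mog conditions and are called Gad cells here.

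The study sorted TdTomato-positive cells from frontal cortex and hippocampus of mice at postnatal days 18 to 20 and counted 3′ mRNA ends by droplet sequencing. Every animal carried the Nkx2.1-Cre driver, which is active in the medial ganglionic eminence (MGE), and the Ai14 TdTomato reporter. WT animals had Grin1 wt/wt and Grin1-null animals had Grin1 fl/fl, so that the obligate NMDA receptor subunit was removed from cells with a history of Nkx2.1-Cre. Both sexes and littermate controls were used, and a library may pool animals. The strain was not given in the sources used here. There were 3 libraries of WT cortex, 2 of Grin1-null cortex, 3 of WT hippocampus and 2 of Grin1-null hippocampus, with replicate 1 of each group made with version 2 and the others with version 3 of the 10x chemistry. Libraries, not cells, were the replicates. The study calls them independent biological replicates, drawn from 10 WT and 6 Grin1-null animals, without saying which animals went into each.

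The deposited Gad cells of WT cortex replicates 1, 2 and 3 had a median of 7867, 4686 and 8625 UMIs. Those of Grin1-null cortex replicates 1 and 2 had 8371 and 13929. In WT hippocampus the medians were 5488, 2040 and 9732, and in Grin1-null hippocampus 11771 and 13930. WT hippocampus replicate 2 was the shallowest library and both second replicates of the null groups were the deepest. Grin1-null cortex replicate 1 was small, with 181 cells in the files and 127 Gad cells. Of 26892 distinct barcodes, 95 were found in 2 libraries, and 0 members had such a barcode.

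Cortical interneurons born in the MGE become parvalbumin, somatostatin and some neurogliaform cells, and most shut off Nkx2-1 once they leave the ventricular zone, whereas many interneurons that settle in the striatum keep it. Crabp1 holds retinoic acid in the cytosol, and Pthlh encodes a secreted peptide (PTHrP) that marks chandelier cells and several striatal and cortical parvalbumin-related interneurons. Hapln1 is a link protein that ties hyaluronan to proteoglycans in the matrix around neurons.

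The values that chose the members are given as a description. Crabp1 ranged from 1 to 102 UMIs per member with a median of 8, Pthlh from 0 to 52 with a median of 9, and Nkx2-1 from 0 to 12 with a median of 3. Both Pthlh and Nkx2-1 were found in 85 members, while 8 had Pthlh 0 and 10 had Nkx2-1 0. Summed over members Crabp1 stood at 1367 CPM, Pthlh at 916 and Nkx2-1 at 233. Hapln1, a marker that the rule did not use, was found in 96 of 103 members (93.2%) at 1121 CPM, against 30.3% of the other Gad cells and 0.852% of oligodendrocytes, a class that should lack it. The median depth was 12512 UMIs in members, 7784 in other Gad cells and 6003 in oligodendrocytes. With every cell thinned to 3000 UMIs, which left out 2 members and 1993 oligodendrocytes, Hapln1 was found in 86.1% of members and 0.444% of oligodendrocytes. Of the 4 markers only Hapln1 is independent of the rule, and it does not single members out, since it was found in 99.1% of Lamp5 cells at 2267 CPM. TdTomato mRNA was found in 103 of 103 members, at 1378 CPM.

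Near the limits of the rule, 13 members had exactly 1 Crabp1 UMI, 7 had 2 and 5 had 3, while 736 cells with Crabp1 0 met every other condition. Members with a Pthlh and Nkx2-1 sum of 2 numbered 9, and cells just outside with a sum of 1 numbered 13 and with a sum of 0 numbered 21. The highest Sst level inside was 1321 CPM and the next 623, and the 2 cells kept out by Sst alone started at 3686. A further 8 cells were kept out by Mog and 3 by having over 6000 genes. Outside the members Crabp1 was held by 99 of 9836 other Gad cells (1.01%) and by 3 of 7625 oligodendrocytes (0.0393%), and all kept cells with the gene numbered 243.

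In WT animals members were found only in the libraries of cortex. In WT cortex replicates 1, 2 and 3 there were 8 of 767, 9 of 1727 and 19 of 2235 Gad cells, or 1.04% (95% Wilson interval 0.529 to 2.04), 0.521% (0.274 to 0.987) and 0.850% (0.545 to 1.32). In Grin1-null cortex replicates 1 and 2 there were 6 of 127 and 56 of 993, or 4.72% (2.18 to 9.92) and 5.64% (4.37 to 7.25). In WT hippocampus there were 0 of 451, 0 of 1172 and 0 of 739, which over 2362 cells allows a share of up to 0.127%. Both null cortex libraries lay above all 3 WT cortex libraries and their intervals did not meet those of WT. Grin1-null hippocampus had 0 of 165, which allows up to 1.82%, and 5 of 1563 or 0.320% (0.137 to 0.747), all 5 in replicate 2. These intervals and limits cover counting error only and take no account of depth. In WT hippocampus replicate 2, 864 of 1172 Gad cells had under 3000 UMIs.

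**Figure D1:**
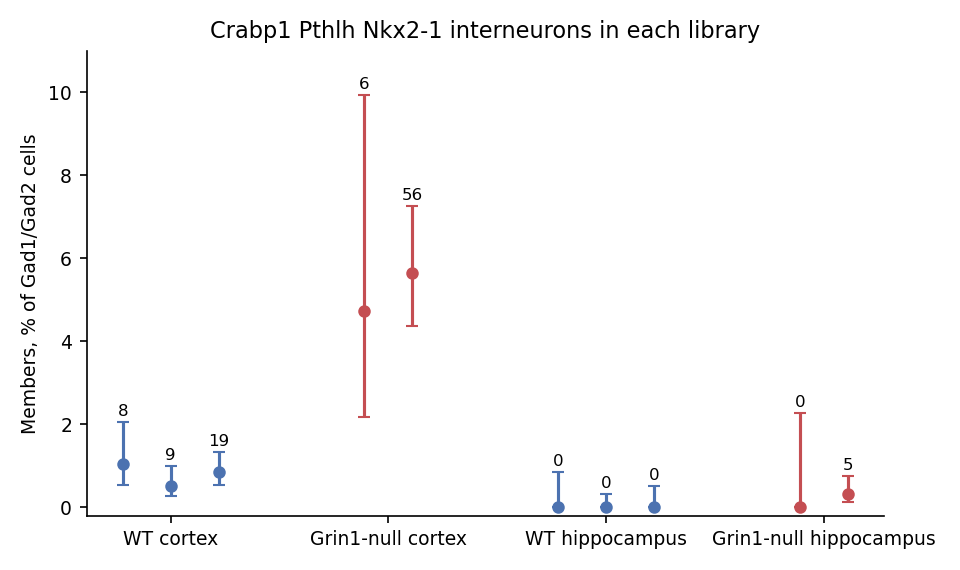
Members as a percent of Gad cells (vertical axis) in each of the 10 libraries, grouped by genotype and region, with 95% Wilson intervals and the number of members above each. Both Grin1-null cortex libraries, at 4.72% and 5.64%, sit above the 3 WT cortex libraries.

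The share was 5.18% ± 0.647 (SD, n = 2 libraries) in Grin1-null cortex and 0.805% ± 0.264 (SD, n = 3) in WT cortex, a difference of 4.38 percentage points and a ratio of 6.44 between means. With all kept cells as denominator the difference was 2.33 points. The two-sided exact permutation p was 0.1, the smallest that 2 against 3 libraries allow, and 0.15 after Benjamini-Hochberg adjustment over 3 comparisons of shares. WT hippocampus was lower than WT cortex by the same measure, at 0 against 0.805%, again with an exact permutation p of 0.1 that 3 against 3 cannot go below. The study dissected both regions from brain slices of its animals, and this test takes no account of animals that the regions may share. WT hippocampus was lower in each of the 3 replicates, and a test paired by replicate could not reach a p as small. For Grin1-null against WT hippocampus the means were 0.160% ± 0.226 (SD, n = 2) and 0 (n = 3), with an exact permutation p of 0.4, and without Grin1-null hippocampus replicate 2 the difference was 0. The exact permutation test cannot pass 0.05 with these numbers of libraries. Gad cells of null cortex replicate 2 were the deepest of cortex, and more UMIs make Crabp1 easier to find. After thinning to 3000 UMIs the shares were 1.02%, 0.240% and 0.706% in WT cortex and 3.19% and 4.35% in null cortex. The shares themselves did not overlap, but null cortex replicate 1 then had only 3 members of 94 Gad cells. In WT hippocampus there were 0 members among 401, 310 and 677 Gad cells of the thinned counts. Null hippocampus had 0 of 168 and 3 of 1640. Intervals are not given for thinned cells. The filter on genes and mitochondrial UMIs kept 1277 of 1277, 3830 of 3851 and 3930 of 3960 cells of WT cortex. It kept 177 of 181 and 2578 of 2898 of null cortex. In hippocampus it kept 2219 of 2221, 4599 of 4600 and 3135 of 3159 WT cells, and 401 of 404 and 4055 of 4436 null cells. The study reports cells above its mitochondrial limit in null libraries only. The part of this uneven loss in the share differences was not tested. The Pthlh cells without Crabp1 described further on made up 4.56%, 2.61% and 2.19% of WT cortex Gad cells and 2.36% and 8.16% in null cortex, which overlapped.

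Sex-linked mRNA was uneven across the libraries. Xist, the RNA that coats the inactive X chromosome of female cells, was found in 540 of 767, 0 of 1727 and 114 of 2235 Gad cells of WT cortex replicates 1, 2 and 3 and in 19 of 127 and 0 of 993 of null cortex. The sexes pooled in each library were not given. Xist was singled out after its values were seen. Among members it was found in 5 of 8, 0 of 9 and 5 of 19 in WT cortex, and in 0 of 67 in the null libraries. Of the cortex libraries, 2 had no Xist at all, and in these the share of members was 0.521% (WT cortex replicate 2) and 5.64% (null cortex replicate 2). These are single libraries, and the part of sex in any share difference was not tested. In hippocampus Xist was found in 234 of 451, 0 of 1172 and 363 of 739 WT Gad cells. In null hippocampus it was found in 0 of 165 and 1 of 1563. WT hippocampus replicate 2 thus also lacked Xist, and it had 0 members. The part of sex in the hippocampal comparison was not tested. The Y-linked genes Ddx3y, Eif2s3y, Uty and Kdm5d summed to 39.9, 188 and 135 CPM in Gad cells of WT cortex, 119 and 189 in null cortex, 97.6, 210.2 and 96.1 in WT hippocampus and 142 and 194 in null hippocampus. They were found in every library.

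Members were next compared with 3 classes of Gad cells that had Crabp1 0 and passed the same cap on Sst: Pthlh cells (at least 2 Pthlh UMIs), Pvalb cells (at least 3 Pvalb UMIs and Pthlh 0) and Lamp5 cells (at least 3 Lamp5 UMIs, Pthlh 0 and Pvalb under 3). UMIs were summed per library and class over libraries with at least 5 cells of both classes, and genes were tested with edgeR with library as a block. Calls needed an edgeR adjusted p below 0.01 and a change of 0.1 or more in natural logs. Genes that the rules used were left out of the calls. Since the classes were drawn from the same cells by their counts, the p-values order genes and are no evidence that the classes exist.

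Relative to the 306 Pthlh cells of 5 libraries, 97 members were lower in Cck and in chandelier cell genes and higher in the genes given below. Of 5306 genes tested, 230 were higher (4.33%) and 195 lower (3.68%), and both counts were lower with no library block. Megf11, a transmembrane protein with EGF repeats that spaces retinal neurons, stood at 258, 258 and 148 CPM in members of WT cortex replicates 1, 2 and 3, 219.6 in null cortex replicate 2 and 105 in null hippocampus replicate 2. In Pthlh cells of the same libraries it was at 0, 0, 1.73, 2.90 and 0. Between these 2 classes the gene was nearly confined to members in each of these libraries, with a log2 change of 6.99 (SE 0.39, edgeR adjusted p = 2.13e-14). St18, a zinc finger factor of the Myt family, rose by 6.87 (SE 0.41), Lypd1, a GPI-anchored Ly6 protein, by 6.09 (SE 0.43), and Opn3, the opsin encephalopsin, by 5.43 (SE 0.28). Prox1, the homeobox factor typical of interneurons from the caudal ganglionic eminence (CGE), rose by 4.94 (SE 0.43). The calmodulin-binding peptide Pcp4 rose by 4.49, the surface glycoprotein Cd24a by 4.34, the aggrecan-cleaving protease Adamts5 by 4.22, the GDNF-family ligand Nrtn (neurturin) by 4.12 and the cannabinoid receptor Cnr1 by 4.02. All of these were higher in 5 of 5 libraries.

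Cck, the cholecystokinin peptide, ran the other way. It stood at 0, 0, 50.9, 1.23 and 0 CPM in members of the 5 libraries and at 1260.4, 1581, 1677, 1983 and 987 in Pthlh cells. Members were low in every library, with a log2 change of -7.38 (SE 0.33, edgeR adjusted p = 1.92e-16). Nrgn, a calmodulin-binding protein of dendrites, changed by -4.91 (SE 0.28), Plcxd3, a phospholipase-like protein, by -5.02 (SE 0.28), and the adhesion receptor Gpr123 by -5.15 (SE 0.33). A few were almost without counts in members. Pde5a, the cyclic GMP phosphodiesterase, had 0 UMIs in members and 266 in Pthlh cells, a log2 change of at least -4.86 in size against a limit of 3 counts over the members. The inositol trisphosphate receptor Itpr1 had 3 UMIs against 580 (pooled ratio 0.0158, counting interval 0.00325 to 0.0464), the keratin Krt12 had 3 against 424 (0.0216, 0.00444 to 0.0636), and the GDNF co-receptor Gfra1 had 1 against 239 (0.0128, 0.000322 to 0.0719).

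Of the 8 genes of the chandelier list, 4 were tested against Pthlh cells. The study had named C1ql1, Unc5b and Fgf13 from these same data as markers of a putative chandelier cluster, so their direction is no independent evidence. All 4 tested genes were lower in members, with a median log2 change of -3.65 against -0.01 for all genes tested. They were C1ql1, a C1q-like synaptic organiser, at -4.20, the netrin receptor Unc5b at -3.80, the intracellular sodium channel partner Fgf13 at -3.49 and the copine Cpne5 at -2.27, whose adjusted p was 0.0123 with no library block. The 6 tested markers that the study itself had drawn from these cells all rose, which is no independent evidence of direction: Pcp4, Cnr1, the ETS factor Etv1 (3.70), the ephrin receptor Epha4 (3.57), the calcium-binding protein Necab2 (2.81) and Hapln1 (2.70). Kit, the receptor for stem cell factor, rose by 3.07 and Igfbp4, a secreted binding protein for insulin-like growth factors, by 2.64. Of 13 fast-spiking genes tested, 2 rose and 6 fell, among them the Kv3 channel gene Kcnc2 at -2.25, the channel partner Kcnip2 at -2.61 and Tcap (telethonin) at -3.61, while Cox6a2, a mitochondrial cytochrome oxidase subunit, rose by 0.95. Pvalb itself changed by -0.84 (edgeR adjusted p = 0.00318) and was lower in 4 of 5 libraries, but without WT cortex replicate 3 its adjusted p was 0.0474, with no library block 0.0813 and under DESeq2 0.0284.

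Set against 874 Pvalb cells in 6 libraries, members were far higher in the receptor tyrosine kinases Kit and Egfr. Of 6637 genes tested, 306 were higher (4.61%) and 344 lower (5.18%), and both counts were lower with no library block. DESeq2 called 244 higher and 179 lower. Kit ranged from 596 to 968 CPM over the members of 6 libraries with none below 596, and from 0 to 8.08 in Pvalb cells. The ranges were far apart, with a log2 change of 7.82 (SE 0.20, edgeR adjusted p = 2.80e-46). Egfr, the epidermal growth factor receptor, was at 55.3, 221, 227, 218, 221 and 178 in members and between 0 and 2.50 in Pvalb cells, a change of 7.75 (SE 0.35). Its lowest value fell in WT cortex replicate 1. Megf11 rose by 8.21 and St18 by 8.16. Prokr2, a prokineticin receptor, rose by 6.48, the heparan sulfate sulfotransferases Hs3st4 and Hs3st2 by 6.32 and 6.19, Prox1 by 5.98 and Opn3 by 5.82. Prox1os, transcribed antisense to Prox1, had 79 UMIs in members and 0 in Pvalb cells, at least 7.52 higher on the log2 scale against a limit of 3 counts over the class. In the annotation used here (GENCODE vM21, GRCm38) Prox1 lies at chr1:190118035-190170714 on the minus strand and Prox1os at chr1:190170296-190217276 on the plus strand. They overlap where each gene starts. The libraries counted 3′ mRNA ends, which lie away from this overlap, and whether any reads from it were counted was not tested. The sources used here do not state how strand was used in the counting.

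Genes of fast-spiking cells were low in members. Kcnc2 stood at 0, 18.4, 50.9, 0, 50.6 and 73.2 CPM in members and at 761, 736, 530.3, 428, 1121 and 889 in Pvalb cells, with no overlap. Its log2 change was -4.26 (SE 0.20, edgeR adjusted p = 2.84e-30). Of 14 genes of the fast-spiking list, 8 were lower and 1, Cox6a2 at 1.04, was higher, with a median of -1.32 against -0.04 for all genes tested. The guidance ligand Slit2 changed by -4.45, Tcap by -4.28, the tachykinin precursor Tac1 by -3.37 and the synaptic calcium sensor Syt2 by -2.94. Outside this list Cck changed by -5.98, the nuclear receptor Nr4a2 had 1 UMI against 397 (pooled ratio 0.0176, counting interval 0.000444 to 0.0985), the centromere histone Cenpa changed by -4.83, Itpr1 by -4.81, the vesicular zinc transporter Slc30a3 by -4.74 and the Ras activator Rasgrp1 by -4.48, which DESeq2 did not call (adjusted p = 0.0395). Plch2, a phospholipase C, had 3 UMIs against 501 (0.0418, 0.00859 to 0.123). The chromatin organiser Satb1, which is needed for maturation of MGE interneurons, changed by -3.77, and the retinol carrier Rbp4 by -4.11, the only gene of the retinoid list called among 4 tested. The transcription factor Maf, which is expressed in MGE lineages, was higher by 1.40.

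Compared with 646 Lamp5 cells in 5 libraries, members were lower in most neurogliaform genes tested. Of 3351 genes tested, 438 were higher (13.1%) and 329 lower (9.82%), and both counts were lower with no library block. Gpr83, a G protein-coupled receptor for neuropeptides, was at 1124, 1215, 857, 558 and 512 CPM in members and at 15.8, 9.15, 23.5, 5.34 and 3.62 in Lamp5 cells. Members were high in all 5 libraries, and the log2 change was 6.59 (SE 0.22, edgeR adjusted p = 4.99e-27). The neuronal calcium sensor Hpcal1 had 271 UMIs in members and 3 in Lamp5 cells (pooled ratio 587, counting interval 199 to 2866). Megf11 rose by 7.06, the synaptic adhesion molecule Il1rapl2 by 7.06, Opn3 by 6.56, St18 by 5.86, Etv1 by 5.40, Pcp4 by 5.31 and the monooxygenase-like Moxd1 by 4.80. The imprinted gene Nnat (neuronatin) was also among the largest rises.

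Npy, the neuropeptide of neurogliaform cells, stood at 55.3, 36.8, 69.5, 337 and 31.4 CPM in members and at 5155, 4742, 5136, 4751 and 3282 in Lamp5 cells. No library overlapped, and the log2 change was -4.81 (SE 0.20, edgeR adjusted p = 1.47e-23). Of 8 neurogliaform genes tested, 7 were lower, among them the nitric oxide synthase Nos1 at -5.51, the calcium channel subunit Cacna2d1 at -4.41, the semaphorin Sema3c at -4.02 and the inhibitor of differentiation Id2 at -3.61, and 1, Egfr at 1.75, was higher. Hapln1 was also lower than in Lamp5 cells, by -1.20 (SE 0.10), although higher than in the other classes. Cck changed by -7.32, the nociceptin precursor Pnoc by -5.52 and the netrin receptor Unc5c by -5.41. Igfbp2, a binding protein for insulin-like growth factors, had 0 UMIs in members against 1790, a log2 change of at least -6.52 in size, and the phosphodiesterase Pde11a had 0 against 948. The Ras-like Rasl11a had 3 UMIs against 871 (pooled ratio 0.0224, counting interval 0.00461 to 0.0657) and the troponin Tnnt1 had 3 against 692 (0.0282, 0.00580 to 0.0827). Lamp5 itself, which the member rule did not use, had 0 UMIs in members.

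**Figure D2:**
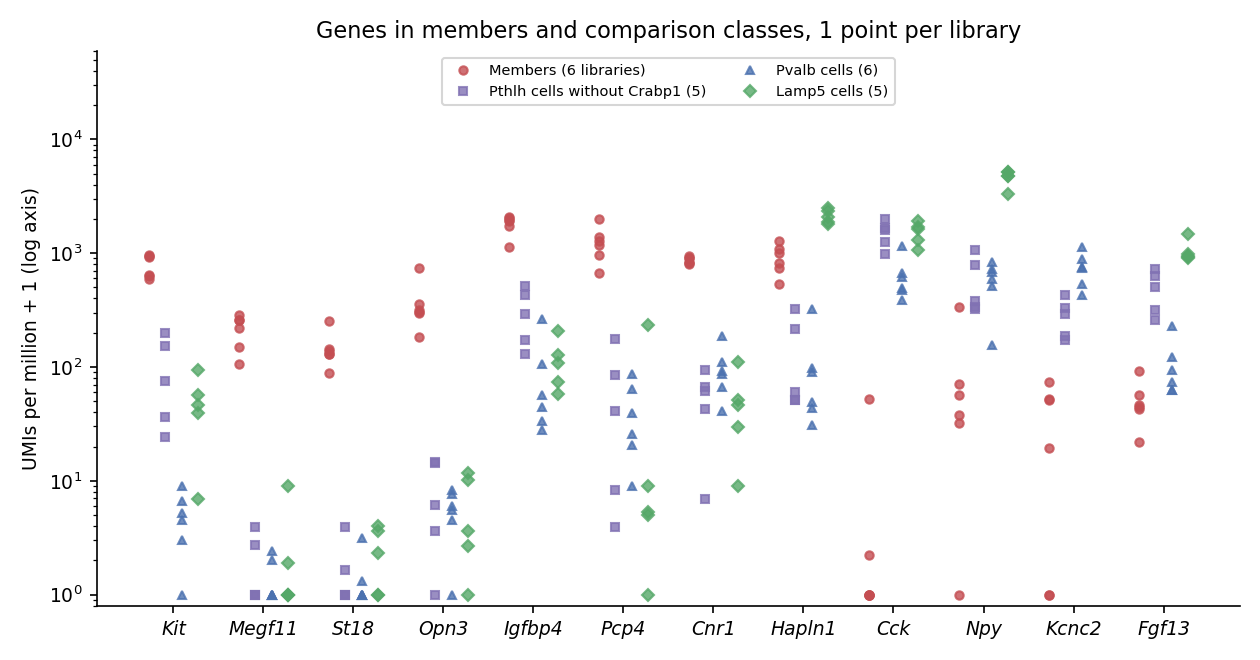
CPM plus 1 (log axis) of 12 genes in members and in Pthlh, Pvalb and Lamp5 cells, 1 point per library and class. Kit, Megf11, St18, Opn3, Igfbp4, Pcp4 and Cnr1 are high in members, and Hapln1 lies below its level in Lamp5 cells. Cck is near 0 in members except those of WT cortex replicate 3 (50.9 CPM).

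The 3 comparisons use the same members, so calls shared between them are given as a count only. Of 3324 genes tested in all, 100 were higher in each comparison, which is 43.5%, 32.7% and 22.8% of the higher calls against Pthlh, Pvalb and Lamp5 cells, and 37 were lower. Of these, 78 and 30 had the same sign in every library. The least of the 3 changes was 6.99 for Megf11, 5.86 for St18, 5.43 for Opn3, 4.49 for Pcp4, 4.22 for Adamts5, 3.07 for Kit and 2.64 for Igfbp4. Igfbp4 was at 1971, 1141, 2065, 1741, 2018 and 1934 CPM in the members of 6 libraries, lowest in WT cortex replicate 2. Null cortex replicate 2 held 56 of the 103 members and the counts of calls fell when it was left out: without it 137 were higher and 121 lower against Pthlh cells, 151 and 129 against Pvalb cells, and 202 and 190 against Lamp5 cells. Of those, 133, 113, 148, 126, 200 and 180 were genes that the full comparisons also called.

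Kit was found in 98 of 103 members (95.1%, and 87.1% after thinning) and in 2.83% of oligodendrocytes (1.44% after thinning), Igfbp4 in 97, Cnr1 in 100, Gpr83 in 100, Opn3 in 90 and Megf11 in 80. The last 5 were found in 0.944%, 0.734%, 0.433%, 0.564% and 0.538% of oligodendrocytes, and after thinning in 92.1%, 90.1%, 80.2%, 62.4% and 35.6% of members and in 0.408%, 0.249%, 0.249%, 0.320% and 0.284% of oligodendrocytes. Epha4 was found in 99 members (96.1%, and 82.2% after thinning) and also in 21.5% of oligodendrocytes (12.8% after thinning). Etv1 was found in 95.1% of members and 41.5% of oligodendrocytes (64.4% and 34.0% after thinning). Nrtn, Lypd1, Prox1os, Hpcal1, Gria4 and Kcnq3 were found in 92.2%, 37.9%, 47.6%, 74.8%, 89.3% and 82.5% of members and in 13.7%, 12.3%, 16.1%, 11.4%, 15.5% and 13.5% of oligodendrocytes (after thinning 72.3%, 23.8%, 16.8%, 45.5%, 59.4% and 53.5% against 8.22%, 8.35%, 9.53%, 6.13%, 8.01% and 7.19%). St18 and Prox1 were found in 31.7% and 40.9% of those cells (17.3% and 24.6% after thinning) against 78.6% and 69.9% of members (38.6% and 32.7%), but in only 0.996% and 4.85% of the other Gad cells. Median depths were 12512 UMIs in members and 6003 in oligodendrocytes. Oligodendrocyte list genes were far below their level in oligodendrocytes: the 10 genes of that list summed to 147 CPM in members, 328 in other Gad cells and 153835 in oligodendrocytes.

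Signalling genes moved as groups of mixed direction. Neuropeptide genes were mostly low, with 0 higher and 5 lower of 7 tested against Pthlh cells, 2 and 6 of 8 against Pvalb cells, and 0 and 4 of 4 against Lamp5 cells, beside 8.01%, 9.79% and 22.9% of all genes called in either direction. The 2 that were higher than in Pvalb cells were Penk, the enkephalin precursor, at 2.33 and Crh, corticotropin-releasing hormone, at 2.23, whose adjusted p was 0.0144 with no library block. Of the CGE list, Prox1 and Cnr1 were higher and Cck lower in each comparison, while 5 of its 10 genes, Vip, Adarb2, Nr2f2, Sp8 and Npas1, had 0 UMIs in members. The remaining list genes, Htr3a and Calb2, were not tested. Htr3a was found in 17.5% of members and 0.946% of other Gad cells (6.93% and 0.488% after thinning). Calb2 was found in 6.80% and 12.4% (4.95% and 9.89% after thinning). Calcium-binding proteins were higher for 6 and lower for 2 of 9 genes against Pthlh and against Pvalb cells and higher for 4 and lower for 2 of 8 against Lamp5 cells. Hpcal1 rose by 3.94 and 3.54 and Vsnl1, the visinin-like sensor, by 1.85 and 1.13 relative to Pthlh and Pvalb cells.

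Over all genes tested, 8.01%, 9.79% and 22.9% were called in either direction against Pthlh, Pvalb and Lamp5 cells. Glutamate receptor genes were higher for 4 and lower for 3 of 13 against Pthlh cells, 2 and 2 of 13 against Pvalb cells and 4 and 2 of 11 against Lamp5 cells. The AMPA receptor subunit Gria4 rose by 0.84, 1.03 and 1.97. The NMDA receptor subunit Grin2b changed by -0.91, -0.93 and -0.61. Against Pthlh cells neither gene was called with no library block (adjusted p = 0.0339 for Gria4 and 0.0320 for Grin2b). No GABA receptor gene but 1 was higher: the counts were 1 higher and 3 lower of 9, 0 and 4 of 11, and 0 and 4 of 9. Potassium channel genes gave 4 and 4 of 15, 3 and 5 of 17, and 5 and 1 of 9. The M-current channel Kcnq3 rose by 1.82, 1.09 and 3.20 and the A-type channel Kcnd3 by 1.35 and 3.45 in the first and second comparisons. Guidance and adhesion genes were split, at 7 higher and 6 lower of 20, 7 and 6 of 22, and 5 and 6 of 14. Epha4 rose by 3.57, 4.54 and 4.18 and its ligand Efna5 by 2.65, 1.59 and 1.85.

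Retinoid genes other than Crabp1 were scarce: 8 of 20 had 0 UMIs in members, and the list summed to 1761 CPM, of which Crabp1 made up 1367. The retinoic acid receptor Rarb was found in 29 members (28.2%, against 0.170% of oligodendrocytes; 8.91% and 0.124% after thinning). A list of striatal and ventral forebrain interneuron genes held 17 genes, few of which were tested. Without those the rule used, 3 were higher and 0 lower of 4 tested against Pthlh cells. The counts were 3 and 1 of 5 against Pvalb cells and 3 and 0 of 3 against Lamp5 cells, with 8.01%, 9.79% and 22.9% of all genes called. The higher genes were Opn3, Moxd1 and Cox6a2 each time and the lower one Rbp4. Cox6a2 is also on the fast-spiking list, and Meis2, another gene of the striatal list, had 0 UMIs in members. Glutamatergic genes summed to 255 CPM in members and 206 in other Gad cells with 6 of 9 at 0 in members, of which Camk2a made up 244, and Camk2a was itself among the 100 genes higher in each comparison. Oligodendrocyte precursor genes summed to 4.70, astrocyte genes to 103 (88.2 in other Gad cells), microglial genes to 13.3 and vascular and choroid plexus genes to 15.7, with 7 of the 8 vascular and choroid plexus genes at 0. Cholinergic genes summed to 0, 810.0, 32.4, 87.1, 144 and 303 in the members of 6 libraries, highest in WT cortex replicate 2, where the UMIs of Chat, Slc18a3 and Isl1 lay in 1 cell each. Scrublet marked 249 kept cells (0.950%) as doublets and 0 members.

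Members varied widely in Pvalb. It was found in 62 of 103 members at up to 94 UMIs, with 35 members holding 10 or more, and ranged from 0 to 5977 CPM with a median of 164. In the libraries with most members, Crabp1 and Pvalb ran against each other, with Spearman's rho of -0.441 over 19 members of WT cortex replicate 3 and -0.566 over 50 members of null cortex replicate 2 that had Pthlh. Pthlh and Pvalb ran together, at 0.568 and 0.359. These are descriptions across cells of 1 library that share depth, and cells are not replicates. Igfbp4 ranged from 0 to 5551 CPM with a median of 1837, Kit from 0 to 2118 with a median of 876 and Crabp1 from 32.8 to 7414 with a median of 813. A single member held 235 of the 296 Npy UMIs.

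The 8 members without Pthlh, which entered through Nkx2-1, stood apart in genes that the rule did not use. They came from null cortex replicate 2 (6 cells), WT cortex replicate 2 (1) and null hippocampus replicate 2 (1), at a median of 12895.5 UMIs against 12342 in the other 95. Igfbp4 was found in 2 of 8 and in 95 of 95, at 247 and 2125 CPM, and Hapln1 in 1 of 8 and 95 of 95, at 19.0 and 1220. Opn3 was at 38.1 and 374 CPM, Cox6a2 at 85.6 and 1265 and Pvalb at 0 and 1048. In place of these, Trh, thyrotropin-releasing hormone, was found in 5 of 8 and 0 of 95, Th, the rate-limiting enzyme of catecholamine synthesis, in 6 and 2, Zic1, a zinc finger factor of septal and ventral forebrain progenitors, in 5 and 0, and Lhx8, a factor of cholinergic and ventral forebrain neurons, in 5 and 6. All 8 kept Epha4, and Pcp4 was at 2303 CPM against 1080. The split was seen in the data and is given without a test. It was also present inside 1 library: in null cortex replicate 2, Hapln1 was found in 0 of 6 members without Pthlh and 50 of 50 with it, Igfbp4 in 1 and 50, Opn3 in 0 and 49, and Trh in 5 and 0, at median depths of 12895.5 and 14590.5 UMIs.

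**Figure D3:**
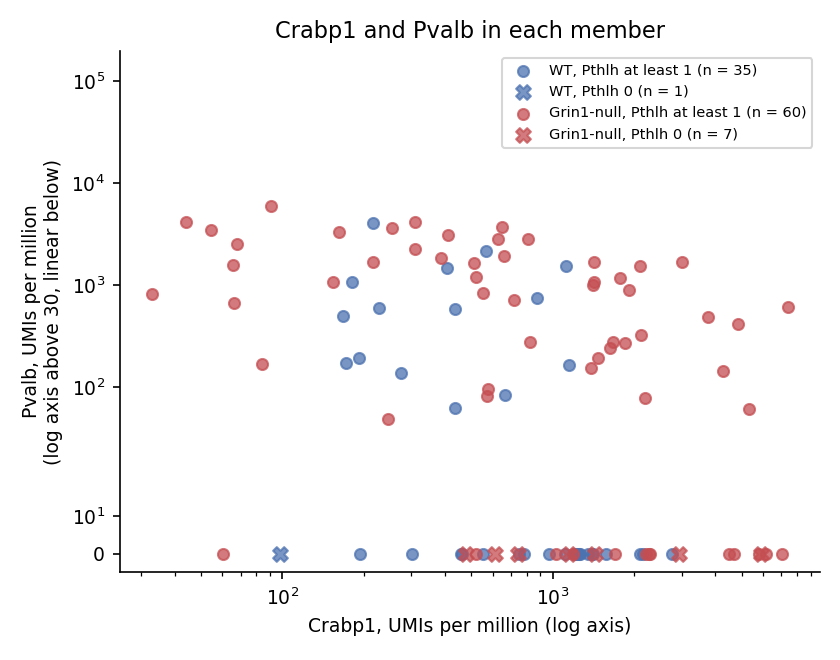
Crabp1 (horizontal, log axis) and Pvalb (vertical, logarithmic above 30 and linear below) in CPM in each of the 103 members, coloured by genotype, with crosses for the 8 members with Pthlh 0. Members with Pvalb lie toward lower Crabp1, and the crosses lie at Pvalb 0.

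Cells kept out by Pthlh and Nkx2-1 were low in Igfbp4, Opn3 and Kit. The 13 with a Pthlh and Nkx2-1 sum of 1 had Igfbp4 at 287, Opn3 at 18.5 and Kit at 213 CPM, and the 21 with a sum of 0 had 124, 4.15 and 41.5. Rbp4, at 65.8 CPM in members, was at 1000.2 and 1726 in them. Trh was at 176 and 141 (76.0 in members), Th at 111 and 99.6 (43.1) and Lhx8 at 74.1 and 58.1 (43.1), so genes of the members without Pthlh were present there too. The 2 cells kept out by Sst alone were mixed. Kit at 629, Igfbp4 at 1102, Opn3 at 179.8 and Hapln1 at 382 CPM were each found in 2 of 2, but Rbp4 was at 585, Satb1 at 539.5 (34.5 in members), the secreted protein Reln at 539.5 (0.783 in members) and Pcp4 at 247 (1180.3 in members).

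The promoters of the 100 genes higher in each comparison were searched in RefSeq sequence (GRCm38.p6, 250 bases before to 50 after the gene start) for the letters CAAGTG, the core of NKX2-family elements, and TAATTA, a homeodomain core, on both strands. Of the 100 genes, 76 matched a promoter by symbol, and the others could not be searched. Only the first promoter listed for a symbol was used, while Kit, Cnr1 and Prox1 had 2, 3 and 2 listed. CAAGTG or its complement CACTTG was in 15 of 76 (19.7%) and in 13.5% of all 27025 promoters, and TAATTA in 0 of 76 and 5.31%. A match is a description and not a site. Megf11, St18, Pcp4, Adamts5, Etv1 and Epha4 were not among the 15, and the promoters of Crabp1, Pthlh and Nkx2-1 had no match. Of the 15, 4 are genes described above, chosen for that reason and shown with the match in capitals: Opn3 (chr1:175692583-175692882, minus strand), Kit (chr5:75574737-75575036, plus strand), Cnr1 (chr4:33924014-33924313, plus strand) and Prox1 (chr1:190170778-190171077, minus strand).
Opn3: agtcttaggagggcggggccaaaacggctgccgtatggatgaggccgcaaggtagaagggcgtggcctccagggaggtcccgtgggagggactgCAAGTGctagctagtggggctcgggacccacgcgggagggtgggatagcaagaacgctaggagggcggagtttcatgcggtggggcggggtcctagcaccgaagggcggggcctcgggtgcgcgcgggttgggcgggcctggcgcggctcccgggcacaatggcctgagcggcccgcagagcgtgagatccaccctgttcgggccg
Kit: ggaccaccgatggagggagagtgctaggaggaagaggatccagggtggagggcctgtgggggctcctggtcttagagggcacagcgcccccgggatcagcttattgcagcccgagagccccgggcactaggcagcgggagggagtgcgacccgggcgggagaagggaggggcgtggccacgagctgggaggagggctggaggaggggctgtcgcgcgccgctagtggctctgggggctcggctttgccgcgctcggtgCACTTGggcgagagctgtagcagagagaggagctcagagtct
Cnr1: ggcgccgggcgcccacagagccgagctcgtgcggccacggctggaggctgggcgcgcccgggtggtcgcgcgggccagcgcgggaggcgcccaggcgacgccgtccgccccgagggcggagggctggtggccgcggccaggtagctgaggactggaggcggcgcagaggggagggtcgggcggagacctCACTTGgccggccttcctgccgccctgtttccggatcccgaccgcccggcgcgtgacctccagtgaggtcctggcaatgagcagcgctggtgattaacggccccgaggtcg
Prox1: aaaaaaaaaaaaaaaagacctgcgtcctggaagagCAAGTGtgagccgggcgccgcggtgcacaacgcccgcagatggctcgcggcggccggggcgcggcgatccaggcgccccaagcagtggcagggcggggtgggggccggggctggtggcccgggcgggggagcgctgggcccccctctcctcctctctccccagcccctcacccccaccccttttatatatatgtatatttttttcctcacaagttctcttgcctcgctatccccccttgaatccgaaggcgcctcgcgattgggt

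Genotype within members was tested over 6 libraries, 3 WT cortex, 2 null cortex and 1 null hippocampus, with region as a term. That term takes up the only hippocampal library, so the genotype difference rests on 3 WT and 2 null cortex libraries, and values of null hippocampus mix region with genotype. Grin1, the targeted gene, stood at 55.3, 258 and 162 CPM in WT members (3, 14 and 35 UMIs, Poisson intervals 11.4 to 161, 141 to 432 and 113 to 225) and at 43.5 and 16.0 in null cortex (2 and 13 UMIs, 5.27 to 157 and 8.54 to 27.4) and 31.4 in null hippocampus replicate 2 (3 UMIs, 6.47 to 91.7). All 3 null libraries were lower than all 3 WT libraries, though each null interval overlaps that of at least 1 WT library. Where the floxed part lies relative to the counted 3′ end was not given in the sources used here. Grin1 was too low for the filter on counts. With no such filter its log2 change was -2.95 (edgeR adjusted p = 0.00161).

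Of 1598 genes tested, edgeR called 0 at an adjusted p under 0.01 in either direction (0% higher, 0% lower), while 61 had an unadjusted p under 0.05 and DESeq2 also called 0. With cortex only, 0 were called as well. Null and WT libraries did not overlap for 108 genes that were higher (6.76%) and 103 that were lower (6.45%). Of single genes, chosen after their values were seen, Stmn1 (stathmin, which destabilises microtubules) had the smallest adjusted p. It was at 995, 1215 and 1255 CPM in WT members and at 305, 361 and 303 in null members, without overlap, with a log2 change of -1.75 (SE 0.33, edgeR adjusted p = 0.0732). Pvalb was at 313, 736 and 449 in WT members and at 2547, 1036 and 1223 in null members, again without overlap, with 1.85 (SE 0.41, adjusted p = 0.159). Hapln1 was at 534, 736 and 815 in WT members and at 1088, 1284 and 993 in null members, without overlap but with a change of 0.79 (SE 0.32) that did not pass the test. Crabp1, Pthlh and Nkx2-1, which the rule used, are given as values only. Crabp1 was at 774, 515 and 797 in WT members and at 435, 1758 and 606 in null members. Pthlh was at 1658, 773 and 746 and at 762, 969.6 and 575, and Nkx2-1 at 332, 166 and 189.9 and at 109, 263 and 115. All 3 overlapped between genotypes.

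Some alternative settings called genes for genotype, named here after their values were seen. With no filter on counts there was 1 higher, Trh, and 4 lower, Grin1, Xist, the peptide gene Cartpt and the long non-coding RNA Yam1. Trh came from 5 members of null cortex replicate 2 and Cartpt from 2 members in all, with 117 of its 145 UMIs in WT cortex replicate 3. Xist differed between the libraries as given above. Without WT cortex replicate 1, 1 gene was lower, Yam1, with a log2 change of -2.96 (edgeR adjusted p = 0.00259). Its levels were 18.4, 2743 and 1079 CPM in WT members and 152, 271 and 199 in null members, so that WT cortex replicate 1 lay below all null libraries and the other WT libraries above them.

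Several limits apply. Members were 103 cells of 10 libraries, 56 of them from null cortex replicate 2, and WT hippocampus had none, so that genotype within members could be followed in cortex only. The study does not exclude that some striatal Nkx2-1 cells entered its dissections. By immunostaining of older mice it did find Nkx2-1 protein in TdTomato cells of cortex and hippocampus, with more such cells in null cortex. It takes most of these as likely neurogliaform cells. Nothing here places a member in a tissue layer or region beyond its library. Shares of cells depend on sorting, dissociation and the filter on cells as well as on tissue. A test of 3 against 2 libraries cannot give a permutation p below 0.1. Genotype, sex of the pooled animals, depth and library cannot be fully told apart. Genes of low level such as Grin1 had few UMIs per library. The classes were set by counts of single genes, so cells that lost a marker by chance are misplaced. mRNA levels do not give protein, position or firing.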

How the data were processed

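The deposited files hold UMI counts per gene and cell, which the authors made with Cell Ranger (2.1.1 in the submitters' processing notes and 3.0.2 in the matrix headers) on mm10, and the 10 libraries were read from the barcode suffixes. Each library's replicate number was the one whose cell number the methods give. Members and gene lists were chosen with earlier results of these data known. In R 4.3.3, edgeR 4.0.16 fitted sums per library by quasi-likelihood after TMM normalisation and its default low-count filter, p-values were adjusted by Benjamini-Hochberg, and DESeq2 1.42.0 served as an alternative. Cells were handled with Python 3.11.15, scipy 1.17.1 and scanpy 1.11.5, whose Scrublet was run per library at an expected rate of 0.06 to mark doublets, which were kept except in an alternative. Genes named per class comparison were the 10 largest rises and 8 largest falls among called genes with at least 50 CPM in the higher class and the same sign in every library, without predicted, mitochondrial and ribosomal genes, plus list genes needed as examples. Log2 changes of genes without counts used a limit of 3 counts. The gene test was checked on simulated counts. Shares were compared by two-sided exact permutation over libraries. Results for a few genes are not reported here.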

Additional observations from a re-analysis of the deposited data

How the results depend on the processing

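Counts of called genes moved with the processing, and the cause was not tested. With DESeq2, 115 genes were lower against Pthlh cells, 179 lower against Pvalb cells and 252 higher against Lamp5 cells, all among those edgeR called. With no filter on counts, 362, 548 and 656 were lower in the 3 comparisons. At an adjusted p under 0.05, 511 were lower against Lamp5 cells. With no library block the counts were 115 higher and 96 lower, 191 and 153, and 164 and 128. Leaving out 1 library at a time gave 137 to 259 higher and 121 to 233 lower against Pthlh cells, 151 to 351 and 129 to 416 against Pvalb cells, and 202 to 509 and 190 to 420 against Lamp5 cells. For genotype within members, no filter on counts gave 1 higher and 4 lower, and leaving out 1 library gave 0 to 0 higher and 0 to 1 lower. Without either null cortex library the genotype difference rests on 1 null cortex library, assumed to vary like the others. With replicate number as a block for the pairing of libraries by chemistry, 0 genes were called in either direction. At least 10 cells per sum could not be fitted for genotype, with 1 library per genotype left, and Crabp1 of at least 2 UMIs was not run for genotype, since only 1 null library kept 5 members. The share difference between null and WT cortex kept its direction throughout, from 3.92 to 4.83 points without 1 library, 3.12 after thinning and 2.33 with all kept cells as denominator. Hippocampus against cortex in WT ranged from -0.947 to -0.686 without 1 library, and null against WT hippocampus from 0 to 0.320. Requiring Pthlh of at least 1 UMI, an alternative chosen after seeing the data, gave 4.09 points. The class comparisons gave 161 results of named genes, each a gene in a single comparison. Of 2267 values for these results under these settings, 2211 stayed past the threshold, 56 did not, and 0 changed sign. The setting at an adjusted p under 0.05 reused the main fit, so it could not lose a call. Genes that a setting did not test are not among these values. With 70 Grin1 UMIs over all members, depth limits what can be said of genes at that level in single libraries.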
